A study of Mus musculus with 8 samples.

Results

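A set of 6 genes of lactate export and pH control was followed in the RNA of mouse skin fibroblasts kept in high or low oxygen: Slc16a1, Slc16a3, Bsg, Car9, Car12 and Slc4a7. They were chosen by name, as 6 of the 17091 features in the table, and all 6 passed the filter on low values that left 12107 genes tested. The cells were immortalised fibroblasts from the skin of C57BL/6 mice, either WT or mir210lox/lox, the latter called KO in the sample labels. Each genotype was cultured at 21% O2 (normoxia) or 1% O2 (hypoxia) for 24 hours, which gave 4 groups of 2 RNA libraries. The labels name no Cre or other agent that would have deleted the floxed Mir210 gene, and do not say how many cell lines or mice stand behind each genotype. A difference between KO and WT can therefore not be told apart from a difference between lines. It is not stated whether duplicates were independent cultures, and the p-values reflect duplicate scatter that could be technical alone.

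Cells that depend on glycolysis make lactate and protons and must export both. Slc16a3 (MCT4) and Slc16a1 (MCT1) are proton-linked monocarboxylate transporters that carry lactate across the plasma membrane, and Slc16a3 is the form known for lactate export from glycolytic cells. Bsg (basigin, CD147) is the glycoprotein that accompanies both transporters to the cell surface. Car9 and Car12 are membrane-bound carbonic anhydrases with an extracellular active site, which interconvert CO2 and bicarbonate outside the cell. Slc4a7 (NBCn1) is a sodium-bicarbonate cotransporter that brings bicarbonate into the cell. SLC16A3 and CA9 are textbook targets of the hypoxia-inducible factors (HIF), transcription factors that bind a short core sequence, ACGTG or GCGTG, in hypoxia response elements.

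Upstream sequences are shown for the genes with the largest hypoxia differences, and for Slc16a1 as the related transporter without one. They come from the RefSeq table of GRCm38.p6, in which 5 of the 6 genes were matched and Bsg was not. ACGTG was searched on both strands (CACGT on the other) in the 250 bases before each start, and it occurs in 16.6% of 32851 such windows and in 21.8% of the 11240 windows of tested genes. The other core, GCGTG, was searched in the same way (on the other strand it reads CACGC) and occurs in 28.2% and 45.2% of them. All sequences are on the plus strand, as are the 6 genes, and capitals mark ACGTG or CACGT. The Slc16a3 stretch is chr11:120948817-120949052, which lies in an intron of a longer gene model and ends where an annotated exon begins, before the RefSeq start at 120949067. The second Slc16a3 line, chr11:120949028-120949057, is the 30-base site that holds both matches, 39 to 10 bases before that start. The Slc16a1 stretch is chr3:104638414-104638663, the whole 250-base window. For Car9 only the site chr4:43506996-43507024 is given, because it lies inside the first exon of an annotated model.
Slc16a3 upstream: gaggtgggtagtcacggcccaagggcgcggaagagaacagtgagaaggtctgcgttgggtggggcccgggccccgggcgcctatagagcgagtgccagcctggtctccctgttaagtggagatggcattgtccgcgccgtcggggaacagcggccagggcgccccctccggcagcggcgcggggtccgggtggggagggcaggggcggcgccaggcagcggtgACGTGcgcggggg
Slc16a3 site: caggcagcggtgACGTGcgcgggggACGTG
Car9 site: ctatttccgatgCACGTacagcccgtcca
Slc16a1 upstream: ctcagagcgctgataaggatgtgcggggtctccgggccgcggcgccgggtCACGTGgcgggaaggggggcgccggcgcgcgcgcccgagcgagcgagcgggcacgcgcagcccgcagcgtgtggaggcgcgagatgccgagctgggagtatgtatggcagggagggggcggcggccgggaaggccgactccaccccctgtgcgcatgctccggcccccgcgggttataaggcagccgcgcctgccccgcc
Slc16a3 held 2 ACGTG matches, both on the plus strand, at 27 to 23 and 14 to 10 bases before its start. Car9 held 1, read on the minus strand, at 18 to 14 bases before its start. Slc16a1 held a CACGTG at 200 to 195 bases before its start, in which the matches on the 2 strands overlap, and also 2 GCGTG matches. Neither motif was found in the windows of Car12 and Slc4a7. The Slc4a7 window, chr14:14718534-14718783, lies inside the annotated gene, which begins at 14702279. The bases before that beginning were not searched. A match is a description of letters and not a binding site, and no binding was measured here.

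Each library's values summed to between 7928389 and 8676920. From the spacing of the low values, the libraries were estimated to rest on 6.26 to 11.77 M reads, so that 1 read was worth between 0.674 and 1.386 units. Short transcripts were relatively highest in the second WT hypoxia and first KO normoxia libraries, by the log2 change of level per doubling of exon length. This length trend was 0.035 and 0.077 in WT normoxia and -0.079 and -0.117 in WT hypoxia. In KO it was -0.142 and 0.143 in normoxia and -0.03 and 0.112 in hypoxia. Both WT hypoxia trends thus lay below both WT normoxia and both KO hypoxia trends. In those comparisons the trend goes along with oxygen or genotype. Fibroblast markers fitted the label: 8 of 10 were at 100 or more in every library, while Dcn and Lum were low. Dcn was at 40 to 93 in WT and 12 to 25 in KO libraries, and Lum at 4 to 36 and 1 to 4. Col3a1 was at 2012 to 4428 in WT and 1509 to 1986 in KO. The other fibroblast markers overlapped between the genotypes. Summed markers of macrophages and leukocytes stayed at 19 to 40, of endothelium at 14 to 49, and of melanocytes and Schwann cells at 55 to 80. Keratinocyte and epithelial markers summed to 36 to 58 in WT and 63 to 78 in KO libraries. Among them Cdh1 was at 8 to 14 in WT and 21 to 38 in KO. Krt5 and Krt1 were at 1 in all 8 libraries. Muscle markers, carried by Cnn1 and Acta1, summed to 4158 to 6642 in WT and 2915 to 4087 in KO. The host feature Mir210 was at the lowest possible value of 1 in all 8 libraries, so it did not check the genotype labels. In bulk RNA, fewer cells of a type and less RNA per cell cannot be told apart.

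Slc16a3, the lactate exporter, rose in hypoxia in both genotypes from a very low level. Its normalised reads were 15 and 13 in WT normoxia and 333 and 443 in WT hypoxia. In KO cells they were 25 and 9 in normoxia and 634 and 606 in hypoxia. The 4 hypoxia libraries lay far above the 4 normoxia libraries, and the lowest hypoxia value was over 10 times the highest normoxia value. Group means were 14.0 ± 1.41 and 388 ± 77.8 for WT, and 17.0 ± 11.3 and 620 ± 19.8 for KO (SD, n = 2 each). On the log2(value + 1) scale Slc16a3 rose by 4.69 ± 0.41 (SE) in WT (25.7-fold; limma adjusted p = 0.00142) and by 5.27 ± 0.41 in KO (38.5-fold; adjusted p = 7.11e-04). It was the gene with the largest rise of all 12107 in each genotype. Over both genotypes the rise was 4.98 ± 0.29 (31.5-fold; adjusted p = 2.90e-05), also the largest of all genes. The normoxia values rest on an estimated 10.9 to 19.0 reads, so the size of the fold depends on the pseudocount of 1.

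The WT call was lost without the second WT hypoxia library (4.48, adjusted p = 0.0742), and both genotypes' calls were lost with no filter on low values (adjusted p = 0.131 in WT and 0.192 in KO). In KO, a fit of its 2 groups alone gave 5.27 with adjusted p = 0.0994. The KO rise was 5.96 without the first KO normoxia library and 4.58 without the second, and it stayed called in both.

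Slc16a1, the other transporter, did not pass the test for oxygen in either genotype. Its values were 1842 and 1561 in WT normoxia, 1627 and 1339 in WT hypoxia, 1400 and 1531 in KO normoxia, and 1439 and 1517 in KO hypoxia. All 8 libraries lay between 1339 and 1842, and hypoxia and normoxia libraries overlapped in each genotype. By replicate number, the values went from 1842 to 1627 and from 1561 to 1339 in WT. In KO they went from 1400 to 1439 and from 1531 to 1517. With the replicate block the WT difference was -0.20 (limma adjusted p = 0.853). The difference between hypoxia and normoxia was -0.20 in WT (95% confidence interval -0.68 to 0.28, adjusted p = 0.899) and 0.01 in KO (-0.47 to 0.50, adjusted p = 0.993). Over both genotypes it was -0.09 (-0.43 to 0.25).

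Because both transporters carry the same substrates, their levels were set side by side per kilobase of exon (union exon lengths of GENCODE M21: 4426 bases for Slc16a1 and 5318 for Slc16a3). In normoxia Slc16a3 made up 0.673% and 0.688% of the summed level in WT and 1.46% and 0.487% in KO. In hypoxia it made up 14.6% and 21.6% in WT and 26.8% and 25.0% in KO. The share was thus higher in each hypoxia library than in any normoxia library, and Slc16a1 remained the larger part in all 8. The summed level was 419 and 355 reads per kilobase in WT normoxia, 430 and 386 in WT hypoxia, 321 and 348 in KO normoxia, and 444 and 457 in KO hypoxia. In KO the hypoxia sums lay above the normoxia sums, and in WT the 2 ranges overlapped.

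**Figure D1:**
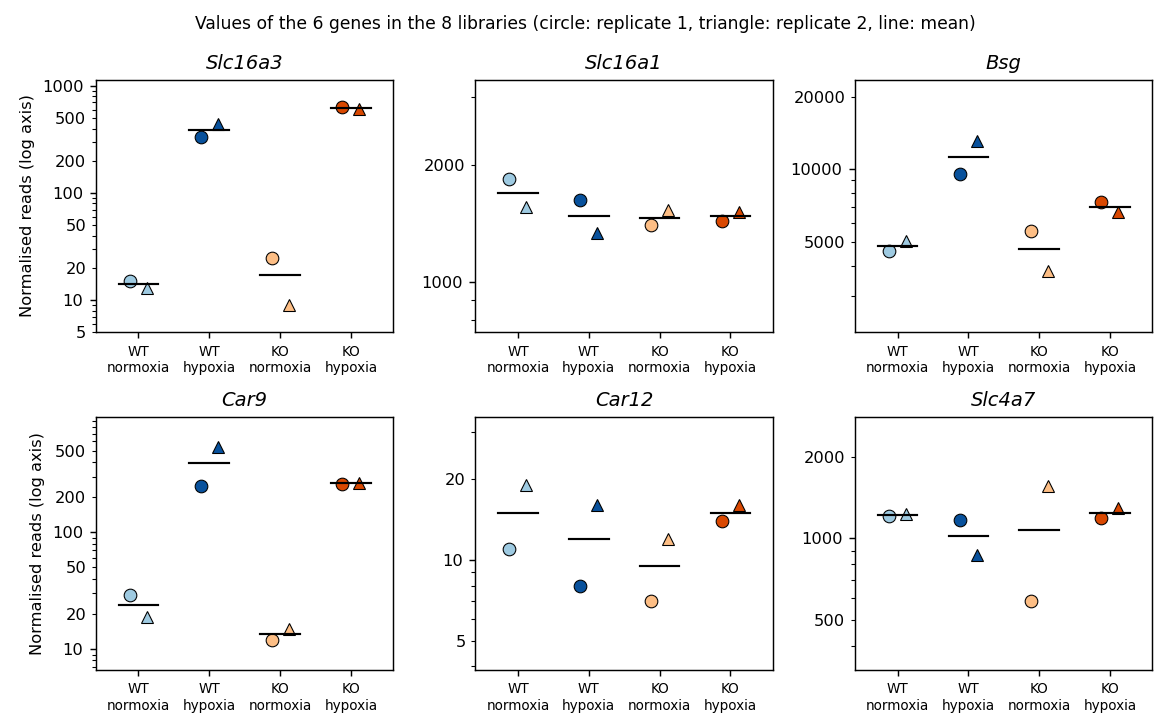
Normalised reads (log axis) of each gene in the 8 libraries by genotype and oxygen. Slc16a3 and Car9 are separated in every hypoxia library from every normoxia library, Bsg is separated by less, and for Slc16a1, Car12 and Slc4a7 the 4 hypoxia and 4 normoxia libraries overlap.

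**Figure D2:**
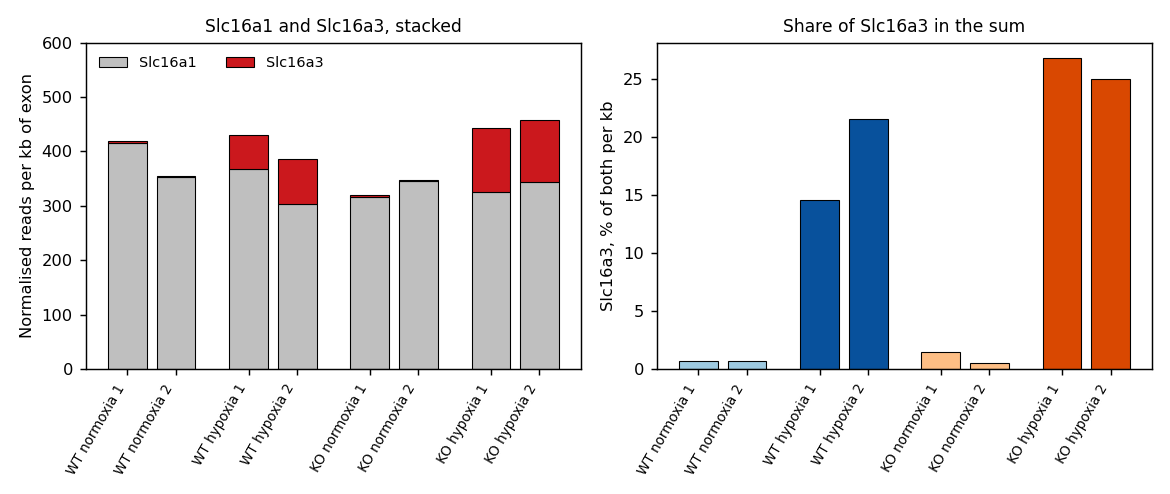
Left, Slc16a1 and Slc16a3 stacked as normalised reads per kilobase of exon in each library. Right, Slc16a3 as a percentage of that sum, which runs from 0.487% to 1.46% in normoxia and from 14.6% to 26.8% in hypoxia.

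Bsg, the chaperone of both transporters, was the most abundant of the 6 genes and was higher in every hypoxia library than in every normoxia library. Bsg was at 4612 and 5056 in WT normoxia and 9554 and 13037 in WT hypoxia. In KO cells it was at 5587 and 3815 in normoxia and 7308 and 6693 in hypoxia. The lowest hypoxia value, 6693, exceeded the highest normoxia value, 5587, and both WT hypoxia libraries lay above both KO hypoxia libraries. The difference was 1.21 ± 0.27 in WT (adjusted p = 0.337) and 0.60 ± 0.27 in KO (adjusted p = 0.916), and neither passed the threshold. Over both genotypes it was 0.90 ± 0.19 (95% confidence interval 0.47 to 1.34, adjusted p = 0.155), which also did not pass. It passed in 1 of the fits with a library left out, that without the first KO normoxia library (1.04, adjusted p = 0.0447), and with the length trend removed it was 0.83 (adjusted p = 0.0607). In each genotype the difference with that trend removed was 1.02 in WT and 0.65 in KO. Per kilobase, Bsg exceeded the summed level of Slc16a1 and Slc16a3 by 6.05 to 9.59 times in normoxia. In hypoxia this ratio was 12.2 and 18.6 in WT and 9.07 and 8.08 in KO.

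Car9, the extracellular carbonic anhydrase known as a hypoxia marker, rose in both genotypes. Car9 was at 29 and 19 in WT normoxia and 250 and 538 in WT hypoxia. In KO cells it was at 12 and 15 in normoxia and 260 and 265 in hypoxia. All hypoxia libraries lay above all normoxia libraries, and the WT hypoxia values, 250 and 538, enclosed both KO hypoxia values. Group means were 24.0 ± 7.07 and 394 ± 204 for WT and 13.5 ± 2.12 and 262.5 ± 3.54 for KO (SD, n = 2 each). The rise was 3.91 ± 0.38 in WT (15.0-fold; limma adjusted p = 0.00247) and 4.19 ± 0.38 in KO (18.3-fold; adjusted p = 0.00173). Over both genotypes it was 4.05 ± 0.27 (16.6-fold; adjusted p = 8.50e-05). The WT call was lost without the second WT hypoxia library (3.36, adjusted p = 0.0742) or without that library and the first KO normoxia library together (adjusted p = 0.0622), and with no filter adjusted p was 0.159 in WT and 0.229 in KO. The antisense gene Gm12454 overlaps Car9, and without a stated use of strand their reads cannot be told apart.

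Car12, the related enzyme, was near the lower limit of detection at 11 and 19 in WT normoxia, 8 and 16 in WT hypoxia, 7 and 12 in KO normoxia, and 14 and 16 in KO hypoxia, an estimated 5.3 to 21.7 reads. Hypoxia and normoxia libraries overlapped in WT and over both genotypes. In KO both normalised hypoxia values lay above both normoxia values, but the estimated reads, 10.1 and 21.7 against 5.3 and 17.8, overlapped. The hypoxia difference was -0.32 (95% confidence interval -1.53 to 0.88) in WT and 0.65 (-0.56 to 1.85) in KO, and over both genotypes 0.16 (-0.69 to 1.01, adjusted p = 0.959). At this depth the intervals leave room for a difference of either sign. Per kilobase, Car9 exceeded Car12 by 3.3 to 8.69 times in normoxia and by 54.6 to 111 times in hypoxia.

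Slc4a7, the bicarbonate importer, was at 1205 and 1225 in WT normoxia, 1165 and 867 in WT hypoxia, 588 and 1555 in KO normoxia, and 1185 and 1287 in KO hypoxia. The 2 KO normoxia libraries were the lowest and the highest of the 8. The hypoxia difference was -0.27 (-1.12 to 0.57, adjusted p = 0.925) in WT and 0.37 (-0.48 to 1.21, adjusted p = 0.917) in KO, and over both genotypes 0.05 (-0.55 to 0.65, adjusted p = 0.986). The KO value turned to -0.33 without the first KO normoxia library and to 1.07 (adjusted p = 0.0399) without the second, so it rests on which of them is used. Slc4a7 has the longest summed exons of the 6 genes, 15205 bases. The 2 KO normoxia libraries had the lowest and the highest length trend of the 8, -0.142 and 0.143. The part of length in their Slc4a7 values was not tested. With each library's length trend removed the hypoxia difference of Slc4a7 was 0.01 in WT and 0.29 in KO.

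Across the 6 genes, the WT hypoxia comparison called 2 (Slc16a3 and Car9), against 0.107% of all tested genes (13), and the KO comparison called the same 2, against 0.0578% (7). Over both genotypes 2 of 6 were called, against 0.363% (44). All 4 hypoxia libraries lay above all 4 normoxia libraries for 3 of the 6 genes (Slc16a3, Bsg and Car9), against 2.06% of all tested genes. The 6 genes were chosen with earlier results of these data known, so these shares describe them and are not a test.

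**Figure D3:**
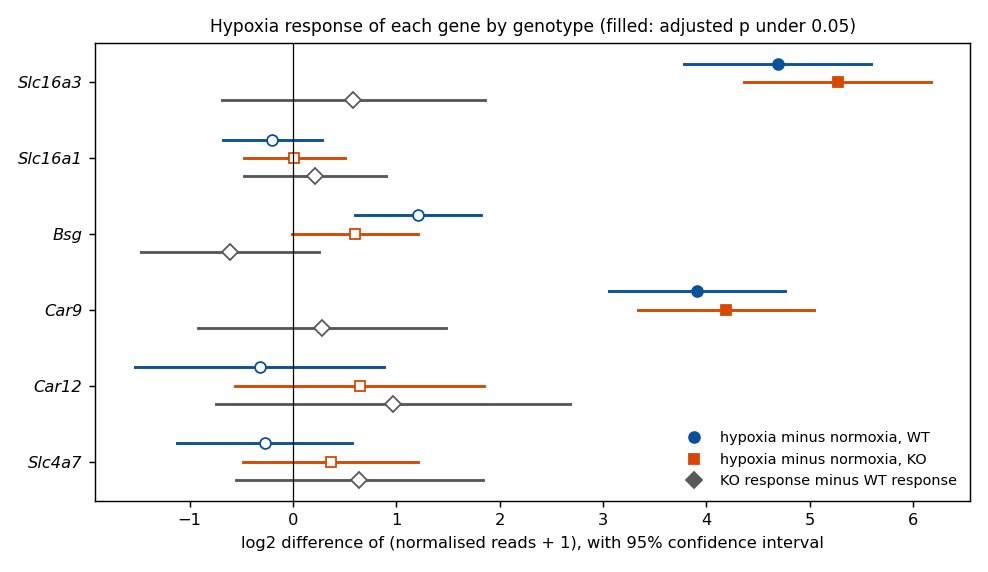
Difference between hypoxia and normoxia in log2(value + 1) for each gene in WT and KO cells, and the KO response minus the WT response, with 95% confidence intervals. Filled symbols mark adjusted p under 0.05, reached by Slc16a3 and Car9 in each genotype; all 6 intervals of the difference between genotypes include 0.

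Genotype was the other factor of the design, and none of the 6 genes passed the threshold for it. In normoxia limma called 0 of 6 (0.0% of all tested genes; 363 genes, none of the 6, were at an unadjusted p under 0.05). In hypoxia it called 0 of 6 (0.0%; 910 genes at an unadjusted p under 0.05, among them Bsg). For the difference between the genotypes' hypoxia responses it also called 0 of 6 (0.0%; 380 genes unadjusted, none of the 6). Over both oxygen levels 0 of 6 were called, against 0.0248% of all genes (3), and 1 of the 6, Car9, was at an unadjusted p under 0.05. These comparisons share libraries with each other, so their values are not independent. The summed keratinocyte and muscle markers given above also differed between WT and KO libraries, as did the fibroblast markers Dcn and Col3a1. Their part in these values was not tested.

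In hypoxia Slc16a3 was 0.69 higher in KO (95% confidence interval -0.21 to 1.59, adjusted p = 0.655) and Bsg 0.67 lower (-1.28 to -0.06, adjusted p = 0.641). With each library's length trend removed these differences were 0.64 for Slc16a3 and -0.51 for Bsg. Car9 differed by -0.48 in hypoxia (-1.33 to 0.37) and by -0.76 in normoxia (-1.61 to 0.09). Slc16a3 in normoxia differed by 0.11 (-0.80 to 1.01). The KO and WT hypoxia libraries did not overlap for Slc16a3, Bsg and Slc4a7, 3 of 6 genes, close to the 50.8% of all tested genes. In normoxia they did not overlap for Slc16a1 and Car9, 2 of 6, against 21.0% of all tested genes.

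The KO response minus the WT response was 0.58 for Slc16a3 (-0.69 to 1.86), 0.28 for Car9 (-0.92 to 1.48) and -0.61 for Bsg (-1.47 to 0.25). For Slc16a1, Car12 and Slc4a7 it was 0.21 (-0.47 to 0.90), 0.97 (-0.74 to 2.68) and 0.64 (-0.55 to 1.84). All 6 intervals include 0. With each library's length trend removed the difference for Bsg was -0.37. With both the second WT hypoxia and the first KO normoxia library left out, the difference was 1.48 for Slc16a3, 0.68 for Car9 and -0.11 for Bsg, and without the second KO normoxia library that of Slc16a3 was -0.11. For Slc16a3 the interval leaves room for a KO response up to 1.86 larger on the log2 scale, so equal responses are not shown.

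Genes whose profiles over the 8 libraries were most like each of the 6 were listed by the mean absolute difference of centred log2 values. Slc16a3 was closest to Egln3 (0.51), the HIF prolyl hydroxylase PHD3, then to Mgarp (0.77) and to Car9 (0.78). Mgarp was at only 1 to 4 in normoxia, at or near the lowest possible value. Car9 was closest to Egln3 (0.39), Ankrd37 (0.43) and Bnip3 (0.45), the mitophagy receptor. Bsg was closest to Gm216 (0.13), Gapdh (0.15) and Hilpda (0.16), a lipid droplet protein. Gm216 was at only 5 to 16 in the 8 libraries, so its likeness is uncertain. Gapdh is a glycolytic enzyme with many near-identical copies and hence an uncertain value. Slc16a1 was closest to Dlat (0.03), Ncoa5 (0.04) and Rbbp5 (0.04), and Car12 to Oxsm (0.11), Nsun3 (0.11) and Lpar4 (0.12). Slc4a7 was closest to Naa30 (0.05), Tab3 (0.06) and Aebp2 (0.07). For scale, the genes' own mean absolute deviations were 2.49 for Slc16a3, 2.02 for Car9, 0.45 for Bsg, 0.37 for Car12, 0.31 for Slc4a7 and 0.10 for Slc16a1.

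The wider pathway was described by 7 lists of lactate and pH genes, 107 names of which 88 were in the table and 58 were tested. Over both genotypes 3 of the 58 rose in hypoxia (Slc16a3, Car9 and Ldha) and 0 fell, against 0.363% of all tested genes called; 24 of 58 had a positive difference, with a median of -0.03, against 50.4% positive and a median of 0.00 over all tested genes. In WT alone 2 rose and in KO alone 2 rose, Slc16a3 and Car9 each time. The lists too were chosen with earlier results of these data known, so these shares are descriptive.

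Of 11 tested monocarboxylate transporters and chaperones, 1 rose and 6 were positive (median 0.06). Slc16a4 had the largest fall, -0.48 ± 0.55, which did not pass. Of 6 lactate dehydrogenase and lactate sensing genes 1 rose, Ldha, which makes lactate from pyruvate. Ldha was at 3942 and 2603 in WT normoxia, 13047 and 13539 in WT hypoxia, 6298 and 2807 in KO normoxia, and 8609 and 7939 in KO hypoxia. All hypoxia libraries lay above all normoxia libraries. The difference was 1.51 ± 0.26 over both genotypes (adjusted p = 0.0407). That call was lost in 6 of the 8 fits with a library left out, all but those without a KO normoxia library (adjusted p 0.0705 to 0.29), with no filter (0.492) and with quantile normalization (1.40, adjusted p = 0.0714). The KO minus WT response of Ldha was -1.08 (-2.23 to 0.07). Mpc1, a subunit of the mitochondrial pyruvate carrier, had the largest fall of this list, -0.25 ± 0.28.

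Of 5 tested carbonic anhydrases 1 rose, Car9; Car13 had the highest mean of the list, 656.9, with a difference of -0.07 ± 0.24. Of 6 bicarbonate transporters 0 were called and 1, Slc4a4, was at an unadjusted p under 0.05: it differed by 0.87 ± 0.27 (limma adjusted p = 0.685). By genotype the Slc4a4 difference was 0.35 ± 0.38 in WT and 1.38 ± 0.38 in KO, and neither passed. Slc4a8 had the largest fall there, -0.35 ± 0.40. Of 9 sodium-proton exchangers and partners 0 were called and 1 was at an unadjusted p under 0.05, Slc9a3r2, at -0.67 ± 0.25 (adjusted p = 0.861). Slc9a7 had the largest rise of that list, 0.25 ± 0.22, and Chp1 its highest mean, 520.2. Of 19 V-ATPase subunits, which build the proton pump of endosomes and lysosomes, limma called 0 and 0 were at an unadjusted p under 0.05; 5 were positive, with a median of -0.09. Atp6ap1 had the highest mean, 1842.2, Atp6v1g2 the largest rise, 0.29 ± 0.37, and Atp6v0a1 the largest fall, -0.31 ± 0.17. Of 2 proton-sensing receptors and channels tested, limma called 0 and 0 were at an unadjusted p under 0.05. Tmem206 differed by 0.03 ± 0.18 and Asic1 by 0.19 ± 0.33. The Asic1 value joins opposite directions: 1.19 ± 0.46 in WT (limma adjusted p = 0.773) and -0.82 ± 0.46 in KO (adjusted p = 0.916). Asic1 was low, at 7 and 14 in WT normoxia and 24 and 24 in WT hypoxia. In KO it was at 20 and 22 in normoxia and 12 and 11 in hypoxia.

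**Figure D4:**
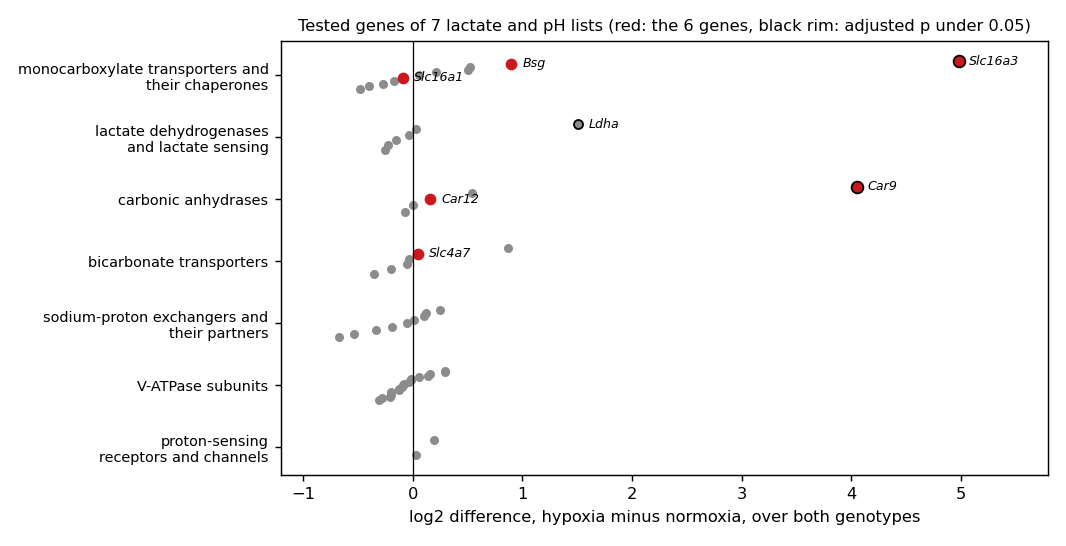
Difference in log2(value + 1) between hypoxia and normoxia over both genotypes for the 58 tested genes of 7 lactate and pH lists, 1 point per gene. Slc16a3 and Car9 lie at 4.98 and 4.05, Ldha at 1.51 and Bsg at 0.90, and the other tested genes between -0.67 and 0.87.

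The 6 genes lie on 6 chromosomes of GRCm38 (GENCODE M21), all on the plus strand and all protein-coding. Slc16a1 (ENSMUSG00000032902) lies at chr3:104638668-104658462, Slc16a3 (ENSMUSG00000025161) at chr11:120948480-120960868 and Bsg (ENSMUSG00000023175) at chr10:79704491-79711969. Car9 (ENSMUSG00000028463) lies at chr4:43506966-43513729, Car12 (ENSMUSG00000032373) at chr9:66713686-66766845 and Slc4a7 (ENSMUSG00000021733) at chr14:14702279-14799940. The build behind the deposited counts is not given in the sources used here, so these positions were matched by gene name only.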

How the data were processed

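RNA was measured in 8 libraries, 2 for each of WT and KO fibroblasts in normoxia and hypoxia. Total RNA was extracted with a miRNeasy kit and libraries were made with a small RNA set for SOLiD, per the labels' protocols. The deposited table holds the authors' normalised counts per gene, rounded to whole numbers, treated as a score; the lowest value is 1. For the aligner, counting program, strand use, build and normalization, the entry is: not given in the sources used here. Of 17091 features, 2240 were at 1 in all libraries, 26 had date-like names, 2 names were duplicated, and the number of unused sample columns was 0.

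Tested were the 12107 genes that reached 10 in 2 or more of the 8 libraries, and 4984 features were not tested. limma 3.58.1 (R 4.3.3, trend) was fitted to log2(value + 1) in a model of the 4 groups, with Benjamini-Hochberg adjustment over all tested genes and a threshold of 0.05; fold changes are on that scale and understate those of low genes. The script was tested on simulated data. Exact tests of 2 against 2 libraries cannot go below p = 0.333 and were not used. No count model was fitted, since whole reads could not be recovered from the rounded values. Members and lists were chosen with earlier results of these data known. Named were the 6 genes, genes of the lists that were called, and the highest mean and the largest rise and fall of each list. Pseudocount, filter, scaling, the replicate block, length and leaving out libraries were varied.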

Additional observations from a re-analysis of the deposited data

How the results depend on the processing

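With 2 libraries per group, leaving out 1 moved values of low or scattered genes, and the cause was not tested. Of 512 values from such fits, counts of called genes included, 449 stayed the same, as did 560 of 605 under other settings. For a gene this means the same direction and side of the threshold, and for a count an equal or similar number. Counts of 0 in both fits are included. The count of the 6 genes called in WT hypoxia was 2 in the fit reported, 0 with no filter, 1 with both the second WT hypoxia and the first KO normoxia library left out, and 0 to 2 with 1 library left out. In KO hypoxia it was 2, against 0 with no filter and 1 in a fit of the 2 groups only.

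Other scalings turned values near 0. Slc4a7 in WT hypoxia was 0.01 with the length trend removed. Slc16a1 in KO hypoxia was -0.02 with upper-quartile scaling and -0.01 with quantile normalization, and in KO against WT in hypoxia -0.01 with upper-quartile scaling and -0.01 with the length trend removed. Car12 over both genotypes was 0.00 with quantile normalization. Car12 was not tested under the stricter filter.

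With both the second WT hypoxia and the first KO normoxia library left out, KO hypoxia gave Slc16a1 -0.05 and Slc4a7 -0.33, KO against WT in normoxia gave Slc16a3 -0.58 and Slc4a7 0.36, and in hypoxia Slc16a1 -0.14 and Car9 0.07. The difference of responses gave Slc16a3 1.48, Car9 0.68, Bsg -0.11 and Slc4a7 -0.27, hypoxia over both genotypes Car12 -0.24 and Slc4a7 -0.20, and the pooled genotype comparison Car12 0.29 and Slc4a7 0.22.

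Leaving out 1 library gave these ranges. WT hypoxia: Car12 -0.78 to 0.13. KO hypoxia: Slc16a1 -0.05 to 0.08, Slc16a3 4.58 to 5.96 and Slc4a7 -0.33 to 1.07. KO against WT in normoxia: Slc16a3 -0.58 to 0.80, Bsg -0.34 to 0.21 and Slc4a7 -1.05 to 0.36; in hypoxia: Slc16a1 -0.14 to 0.14, Car9 -1.03 to 0.07 and Car12 -0.09 to 0.83. Difference of responses: Slc16a3 -0.11 to 1.27, Car9 -0.27 to 0.83 and Slc4a7 -0.06 to 1.34. Hypoxia over both genotypes: Car12 -0.07 to 0.39 and Slc4a7 -0.30 to 0.40. Pooled genotype comparison (KO minus WT, oxygen levels together): Car12 -0.35 to 0.11 and Slc4a7 -0.37 to 0.33. A lone library was assumed to vary like the other groups.

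Over all genes, calls ranged with 1 library left out from 1 to 20 in WT hypoxia (13), 4 to 760 in KO hypoxia (7), the 760 without the second KO normoxia library, and 12 to 50 over both genotypes (44). The pooled genotype comparison (3) gave 0 in each of these 8 fits, 0 with both named libraries left out and 30 with no filter. With no filter the calls were 28 in WT hypoxia, 5 in KO hypoxia and, for KO against WT in normoxia, hypoxia and the difference, 19, 14 and 29.

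The labels give a shared replicate number but no shared animal or day. Correlations of same-numbered libraries' deviations were 0.565 between WT normoxia and WT hypoxia and 0.229 between KO normoxia and KO hypoxia. Between WT and KO groups they ran from -0.112 to 0.112. The fit reported did not use the replicate number, and the replicate block sets 1 shared effect for both genotypes. With the replicate block, Slc16a3 and Car9 stayed called in WT hypoxia (adjusted p = 8.60e-04 and 0.00174) and KO hypoxia (3.70e-04 and 0.00111), and all-gene calls were 19, 11 and 56.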
